A study of Mus musculus with 22 samples.

Results

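VEGF and angiopoietin ligands and receptors were represented here by 10 genes: the ligands Vegfa, Vegfb, Vegfc, Pgf, Angpt1 and Angpt2, and the receptors Kdr, Flt1, Flt4 and Tek. A CpG position, which is 1 cytosine on 1 strand, was taken as a member when it was covered in all 22 samples and lay in the gene body or within 2 kb of a curated RefSeq transcription start site (TSS). This gave 791 of 1140639 positions, of which 539 lay within 2 kb of a TSS. Flt1 held 258, Vegfa 163, Flt4 99, Kdr 72, Vegfb 67, Vegfc 60, Angpt2 34, Pgf 24 and Angpt1 14. Tek held 0: 10 of its positions were covered in any sample, at most 19 samples covered the same position, and Tek is not analysed further.

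Methylation was profiled by enhanced reduced representation bisulfite sequencing, which reads CpG-rich fragments of the genome and scores a cytosine as methylated when bisulfite leaves it unconverted. The PyMT mice were F1 females heterozygous for the polyoma virus middle T antigen under the MMTV promoter, which is active mainly in mammary epithelium, on the FVB background. The 10 PyMT samples were glands or tumor pieces with hyperplasia at week 6 (n = 2), adenoma/MIN at week 8 (n = 3), early carcinoma at week 10 (n = 3) or late carcinoma at week 12 (n = 2), and the 12 controls were mammary glands of FVB females without the transgene, 3 at each of these weeks. The labels give these stages but also a disease state of carcinoma for every PyMT sample, those with hyperplasia included. These are bulk tissues, so a different share of a cell type and a different methylation within it cannot be told apart.

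VEGF-A binds the receptor tyrosine kinases VEGFR2 (Kdr) and VEGFR1 (Flt1) on endothelial cells and drives the sprouting of blood vessels, while VEGF-C acts on VEGFR3 (Flt4) in lymphatic vessels. Angiopoietin-1 activates the receptor TIE2 (Tek) and stabilizes vessels, and angiopoietin-2 opposes it in many settings. Methylation of a CpG-rich promoter is commonly found in silenced genes, whereas methylation inside a gene body is common in genes of any activity.

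The sequences below hold CpGs of the described cluster with the largest difference between PyMT and FVB outside UTRs, 1 for each of 7 genes and a second for Angpt2, and their values follow gene by gene. The Flt4 sequence is the middle 300 bases of a longer cluster. They come from the mm10 reference, are written 5′ to 3′ on the strand of the gene, and have in capitals each CpG measured in all samples.
Flt1 intron 19, minus strand, chr5:147588666-147588802: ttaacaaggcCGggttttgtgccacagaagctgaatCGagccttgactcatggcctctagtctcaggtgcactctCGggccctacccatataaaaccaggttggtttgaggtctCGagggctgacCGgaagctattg
Angpt2 intron 1, minus strand, chr8:18740292-18740443: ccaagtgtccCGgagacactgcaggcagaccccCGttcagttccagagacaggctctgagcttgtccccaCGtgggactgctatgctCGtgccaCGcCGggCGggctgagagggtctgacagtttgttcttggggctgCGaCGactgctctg
Angpt2 intron 1 (farther from the start site), minus strand, chr8:18739863-18739952: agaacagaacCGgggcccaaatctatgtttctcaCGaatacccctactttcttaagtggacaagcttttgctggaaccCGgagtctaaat
Pgf intron 2, minus strand, chr12:85174160-85174284: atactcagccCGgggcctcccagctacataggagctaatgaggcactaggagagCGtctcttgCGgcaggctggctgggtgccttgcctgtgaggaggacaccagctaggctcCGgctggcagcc
Vegfc intron 1, plus strand, chr8:54080493-54080578: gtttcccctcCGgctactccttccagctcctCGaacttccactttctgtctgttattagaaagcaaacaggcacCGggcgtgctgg
Vegfa intron 7, minus strand, chr17:46018966-46019042: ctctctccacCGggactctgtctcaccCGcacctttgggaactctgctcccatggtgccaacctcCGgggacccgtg
Flt4 exon 13, plus strand, chr11:49634032-49634331: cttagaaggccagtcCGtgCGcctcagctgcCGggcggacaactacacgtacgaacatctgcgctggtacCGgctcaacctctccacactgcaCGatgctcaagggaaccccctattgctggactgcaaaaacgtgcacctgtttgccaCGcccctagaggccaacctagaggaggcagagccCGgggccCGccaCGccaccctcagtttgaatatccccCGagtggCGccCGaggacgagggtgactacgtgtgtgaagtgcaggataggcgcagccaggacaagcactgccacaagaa
Kdr exon 5, minus strand, chr5:75968383-75968474: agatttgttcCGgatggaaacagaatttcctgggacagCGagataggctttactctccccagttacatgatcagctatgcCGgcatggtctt

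The samples held 1314077 to 1435757 positions at a mean coverage of 60.2 to 79.2 reads. The member genes had mean coverages of 54.2 (Vegfb) to 95.5 (Kdr) reads per position. FVB week 8 replicate 2 stood apart from the other 21 samples on the third principal component of the methylation of all clusters. It lay at 1482 where the others lay between -247 and 285. The counts of called member clusters and the Vegfa promoter are given with and without it.

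To ask how many member positions differed at each stage, PyMT and FVB reads were compared position by position by a logistic likelihood-ratio test, and a position was called where pooled methylation differed by 10 points or more and q was below 0.01. Reads and not mice are the units of this test. At hyperplasia 34 member positions were higher in PyMT, 4.30% of the 791, where 2.62% of all positions were higher, and 45 (5.69%) were lower, against 6.01% of all. At adenoma/MIN 54 (6.83%) were higher, against 3.20% of all, and 49 (6.19%) were lower, against 7.10%. At early carcinoma 69 were higher and 69 lower, 8.72% each, against 4.39% and 8.42% of all positions. At late carcinoma 64 (8.09%) were higher, against 4.44% of all, and 67 (8.47%) were lower, against 8.53%. The share of member positions that were higher was therefore above the share of all positions at each stage, and the share that were lower was close to it. The study had already linked hypermethylated regions in this series to Angpt2 and Vegfa, so the higher share is not independent of its results. Angpt2 alone gave 19 of the 34 higher positions at hyperplasia and 15 of the 64 at late carcinoma. Without Angpt2 the member share of higher positions at hyperplasia was below that of all positions. Of the 791, 17 (2.15%) were higher and 25 (3.16%) lower at all 4 stages, against 1.05% and 3.27% of all positions, and 606 (76.6%, against 79.7%) were called at none. Limma across positions takes mice as units and was called at 10 points and an adjusted p under 0.05, a looser threshold. Fewer were called with it, and the balance at hyperplasia turned. There 12 were higher and 7 lower (1.52% and 0.885%, against 0.344% and 1.29% of all positions). At late carcinoma 33 were higher and 26 lower (4.17% and 3.29%, against 1.81% and 3.91% of all). PyMT held 2 samples at hyperplasia and at late carcinoma, so leaving out 1 of them left 1 mouse. The read-based test then called fewer lower positions without PyMT week 6 replicate 1 and without PyMT week 12 replicate 1.

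**Figure D1:**
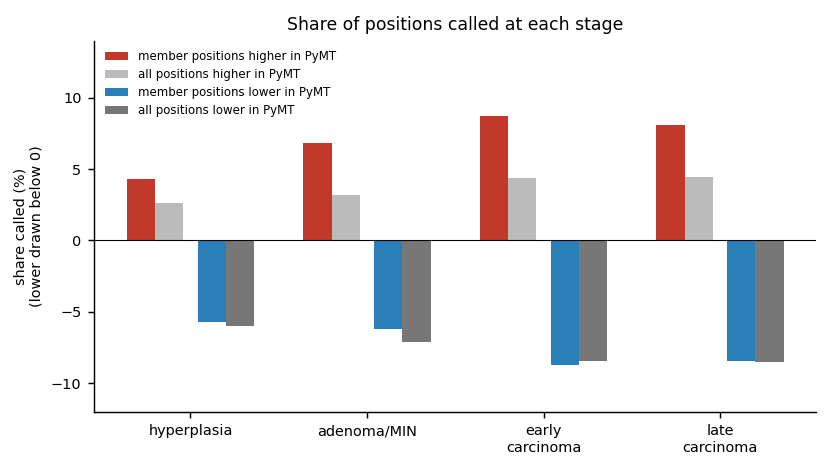
The share of positions called at each stage (vertical axis, percent; shares of lower positions are drawn below 0) among the 791 member positions and among all 1140639 positions. The member share of higher positions exceeds that of all positions at each stage, 8.72% against 4.39% at early carcinoma, while the shares of lower positions are close. At hyperplasia the excess rests on Angpt2, with 19 of the 34 higher member positions.

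To compare mice, positions were joined into clusters (gaps of at most 100 bp, at least 3 positions) and the mean methylation of a cluster in each sample was tested with limma across all 84563 clusters, over the 4 stages together, with Benjamini-Hochberg adjusted p-values. A cluster was called at an adjusted p under 0.05. Of the 59 member clusters, 17 were higher in PyMT, 14 were lower and 28 were not called. That is 28.8% higher and 23.7% lower, where 16.6% of all clusters were higher and 31.6% lower. Without FVB week 8 replicate 2, 17 member clusters were higher and 13 lower, and the shares of all clusters in that fit are not given. Of the 31 called clusters, 10 had PyMT samples that did not overlap the FVB samples. Neither this count nor the next was made over all clusters. The call is on the mean of the 4 stages, which favors 1 shared direction. That direction was kept at each of the 4 stages in 29 of the 31. The exceptions were an Angpt2 cluster 12588 bp into the gene, which was 1.13 points lower at early carcinoma, and the Kdr intron 1 cluster, which was 0.794 points higher at late carcinoma. Among 21 clusters with FVB methylation under 10%, 2 were higher and 2 lower (9.52% each, against 17.1% and 6.66% of all clusters at that level) and none differed by 10 points, the largest difference being 5.78 points. Of the 6 clusters between 10% and 50%, 2 were higher and 4 lower, where 26.7% and 41.3% of all such clusters were. Among the 32 clusters at 50% or more, 13 were higher (40.6%, against 13.7% of all) and 8 lower (25%, against 43.5%). The median difference over the member clusters was -0.0397 points, and it was -0.149 over all clusters.

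**Figure D2:**
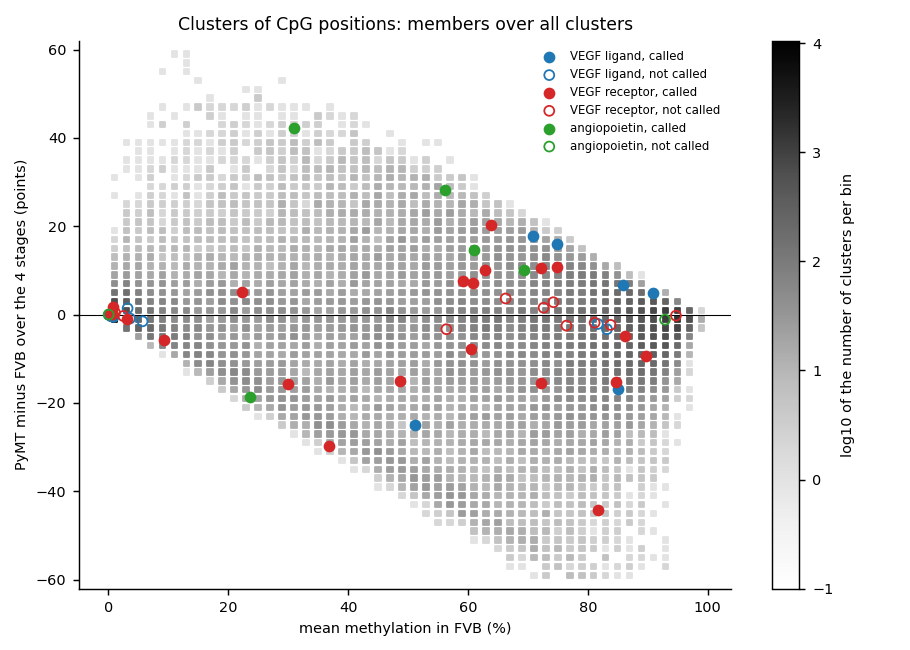
Difference between PyMT and FVB over the 4 stages (vertical axis, percentage points) against mean FVB methylation (horizontal axis, percent) for the member clusters, filled where called, over the number of all clusters in each bin (grey, log10). The 21 member clusters under 10% in FVB lie within 5.78 points of 0, while those between 10% and 50%, or above, reach 42.3 points up and 44.2 points down.

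Promoters, the mean of all positions within 2 kb of a TSS, were measured for 9 members. The Angpt2 promoter rose, the Flt4 promoter rose slightly, the Pgf and Kdr promoters fell, and Vegfa, Vegfb, Vegfc, Angpt1 and Flt1 were not called. That is 2 of 9 higher and 2 of 9 lower, 22.2% each, where 17.0% of 16407 promoters were higher and 17.0% lower. With 1 kb on each side of a TSS 1 was higher and 1 lower, and with the 2 kb upstream alone 0 and 0. The Angpt2 positions lie 1129 bp or more downstream, so neither window tests the Angpt2 call. All 49 Flt4 promoter positions lie downstream as well, so the upstream window does not test the Flt4 call. Shares of all promoters in these windows are not given. Gene bodies beyond 2 kb from a TSS were measured for the same 9 genes, of which Vegfa and Pgf were higher (22.2%, against 20% of 11437 bodies) and Angpt2, Flt4, Kdr and Vegfc were lower (44.4%, against 46.4%).

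Among the ligands, Vegfa, the main driver of sprouting, had called clusters only at its 3′ end. Its promoter averaged 0.174% ± 0.0498 (SD, n = 10) in PyMT and 0.274% ± 0.130 (n = 12) in FVB, a difference of -0.0972 points (limma, 95% interval -0.205 to 0.0104, adjusted p = 0.173). Without FVB week 8 replicate 2 it was -0.128 points with an adjusted p of 0.0238. At the last exon, in the 3′ UTR, a cluster of 16 positions at chr17:46018576-46018822 lay at 82.7, 89.0 and 93.6% (lowest, median, highest) in PyMT and 58.9, 70.1 and 77.7% in FVB. No PyMT sample overlapped an FVB sample. The difference was 17.7 ± 1.66 points (SE, limma, adjusted p = 1.5e-07), and by stage it was 11.4, 13.0, 18.1 and 28.5 points. From weeks 6 and 8 to weeks 10 and 12 this cluster changed by 2.82 points in PyMT and by -8.27 points in FVB. Neither change passed (limma, adjusted p = 0.703 and 0.440). The neighboring cluster of intron 7, whose sequence is printed above, rose by 16 ± 2.85 points (limma, adjusted p = 0.00016), with PyMT at 85.3 to 94.1% and FVB at 58.6 to 82.7%. The other 7 Vegfa clusters were not called, and each lay within 1.51 points of 0. The gene body rose by 9.57 ± 1.04 points (limma, adjusted p = 3.5e-07), from 45.2% in FVB to 54.7% in PyMT, without overlap.

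Vegfb, a ligand of VEGFR1, had 1 called cluster. Its promoter averaged 5.55% ± 0.315 in PyMT and 5.74% ± 0.406 in FVB, a difference of -0.181 points (limma, 95% interval -0.536 to 0.173, adjusted p = 0.488). That cluster, 3 positions at the end of the coding sequence and the 3′ UTR in exon 7 (chr19:6982823-6982855), was 6.79 ± 2.19 points higher (limma, adjusted p = 0.0163), with overlapping groups, a PyMT range of 82.6 to 98.5% and an FVB range of 78.8 to 94.4%. Its mean coverage was 31.2 reads.

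Vegfc, the lymphatic ligand, was low at its start site in PyMT and FVB and lower in PyMT within intron 1. Its promoter averaged 0.347% ± 0.133 in PyMT and 0.282% ± 0.166 in FVB (limma, difference 0.0541 points, 95% interval -0.0658 to 0.174, adjusted p = 0.549). The intron 1 cluster of 4 positions, 2971 to 3036 bp from the TSS, had PyMT values of 60.8, 70.0 and 75.4% and FVB values of 81.3, 83.9 and 90.6%. The groups did not overlap, and the difference was -16.8 ± 1.73 points (limma, adjusted p = 4.2e-07), with -19.7, -17.1, -16.1 and -14.4 points at the 4 stages.

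Pgf, another ligand of VEGFR1, was lower in PyMT within 2 kb of its second TSS. The cluster in intron 2, 4 positions at chr12:85174170-85174274, had PyMT values of 24.3 and 26.4% at week 6, 33.9, 29.7 and 21.6% at week 8, 24.9, 30.2 and 27.0% at week 10 and 21.2 and 25.4% at week 12. FVB values were 37.7, 70.6 and 49.2% at week 6, 53.0, 47.7 and 51.9% at week 8, 52.5, 44.8 and 54.2% at week 10 and 44.0, 52.7 and 55.9% at week 12. All PyMT samples lay below all FVB samples, and the spread was widest in FVB week 6. The difference was -25.1 ± 3.26 points (limma, adjusted p = 6.1e-06) and lay between -22.5 and -27.6 at each stage. The promoter as a whole fell by 4.82 ± 0.537 points (limma, adjusted p = 1.2e-06), but was not called with a window of 1 kb on each side (-0.0502 points), which leaves out this cluster, 1708 to 1812 bp from the nearest TSS. The cluster of 3 positions beyond 2 kb in intron 2 rose by 5.0 ± 1.28 points (limma, adjusted p = 0.0037), with overlapping groups.

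Angpt1, the TIE2 agonist, gave no called cluster. Its promoter, 6 positions in exon 1, was at a mean of 0.0855% in PyMT and 0.0605% in FVB (limma, difference 0.0107 points, 95% interval -0.102 to 0.124, adjusted p = 0.921), with medians of 0 in both. Its gene body averaged 80.8% ± 2.24 in PyMT and 81.6% ± 1.83 in FVB (limma, adjusted p = 0.365).

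Angpt2, the context-dependent TIE2 ligand, had 2 of its 34 positions called at no stage, the smallest share among the measured members. All of its 5 clusters were called, 4 higher and 1 lower, and they lay in intron 1, inside the oppositely oriented host gene Mcph1, so methylation there belongs to both genes. The largest was 1129 to 1260 bp downstream of the TSS (chr8:18740302-18740433, 10 positions). Its methylation in PyMT was 67.5 and 65.9% at week 6, 74.7, 68.9 and 78.6% at week 8, 73.5, 72.1 and 83.1% at week 10 and 80.5 and 71.8% at week 12. In FVB it was 32.2, 36.0 and 16.5% at week 6, 45.5, 34.0 and 31.4% at week 8, 31.0, 22.4 and 30.7% at week 10 and 27.6, 29.2 and 35.4% at week 12. The lowest PyMT sample (65.9%) lay above the highest FVB sample (45.5%). The difference was 42.3 ± 2.77 points (limma, adjusted p = 3.0e-09), and 38.5, 37.1, 48.2 and 45.4 points at the 4 stages.

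A second Angpt2 cluster, 1620 to 1689 bp from the TSS, rose by 28.3 ± 1.78 points (limma, adjusted p = 1.9e-09), with PyMT at 76.0 to 90.4% and FVB at 48.4 to 65.5%. Another, 2374 to 2530 bp away and 12 positions wide, fell by 18.6 ± 1.32 points (limma, adjusted p = 6.7e-09), with PyMT at 1.80 to 7.27% and FVB at 15.2 to 34.5%. Neither of these clusters had overlapping groups. The 2 clusters 12094 to 12643 bp from the TSS were higher by 14.7 and 10.1 points with overlapping groups. The first 2 clusters lie within 2 kb of the TSS and the lower one outside, and the promoter was 38.5 ± 1.98 points higher (limma, adjusted p = 1.7e-10) while the rest of the body was 7.28 points lower. Taking the whole gene body as 1 value gave 12.9 points higher.

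**Figure D3:**
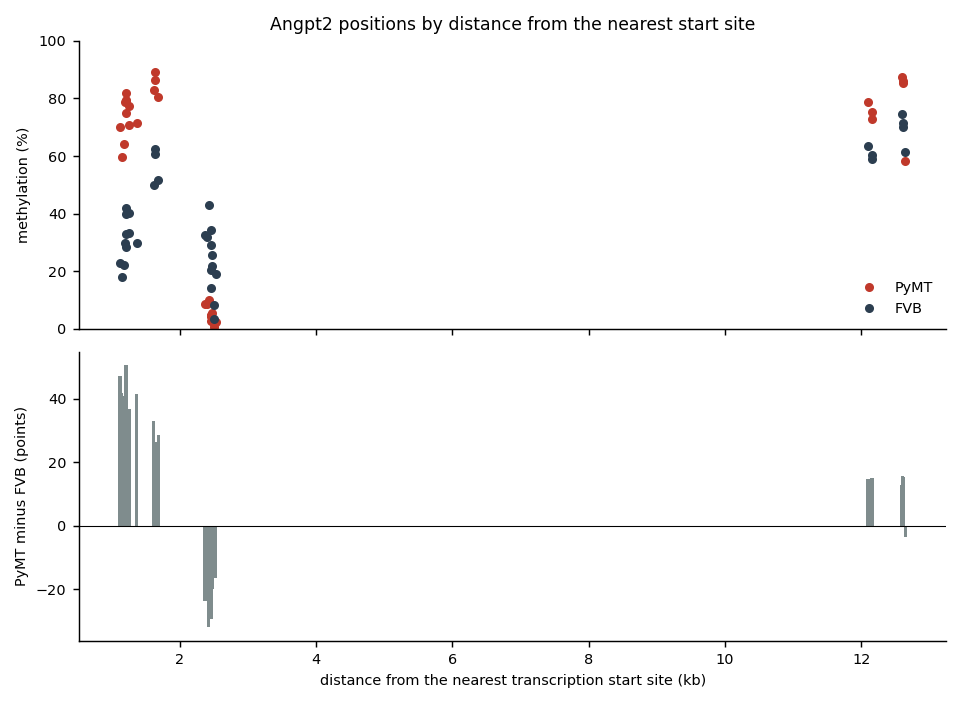
Methylation of the 34 Angpt2 positions (upper panel, mean of PyMT and of FVB samples, percent) and the difference over the 4 stages (lower panel, percentage points) against distance downstream of the TSS (kb). The positions 1.13 to 1.69 kb from the TSS are higher in PyMT, the 12 positions of the cluster that starts 2374 bp away are lower, and most of those around 12 kb are higher.

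Among the receptors, Kdr, which transmits most VEGF-A signal, had 2 lower clusters, in the 3′ UTR and in intron 1, and 2 higher ones, at exons 5 and 10. A cluster of 6 positions in the 3′ UTR of exon 30 (chr5:75933752-75933849) lay at 2.12, 7.81 and 13.3% in PyMT and 20, 37.3 and 49.2% in FVB, with no overlap. The difference was -29.6 ± 2.86 points (limma, adjusted p = 2.1e-07), with -28.5, -29.3, -30.0 and -30.7 points at the 4 stages. A neighboring 3′ UTR cluster was not called (-3.30 points). A cluster of 4 positions in exon 5 rose by 10.8 ± 2.55 points (limma, adjusted p = 0.0020), and a cluster of 8 positions at the border of exon 10 and intron 10 rose by 10.6 ± 2.12 points (limma, adjusted p = 0.00046), both with overlapping groups. The cluster over the TSS itself was not called (0.123 points). The intron 1 cluster, 540 to 694 bp from the TSS, fell by 1.10 ± 0.185 points (limma, adjusted p = 9.1e-05), from 3.15% to 2.0%, and the promoter as a whole by 0.343 points (limma, adjusted p = 0.0076). The promoter difference was -0.587, -0.616 and -0.623 points at the first 3 stages and 0.454 at late carcinoma, and it was not called from the 2 kb upstream alone (0.0623 points for the Kdr promoter). The body was 2.39 points lower (limma, adjusted p = 0.0458), a call lost in 15 of the 22 fits that leave out 1 sample.

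Flt1, which also acts as a decoy for VEGF-A, had the most clusters, 17, and 6 were higher and 5 lower. In intron 19, 5 positions at chr5:147588676-147588792 had PyMT values of 41.9 and 39.0% at week 6, 46.3, 41.2 and 31.9% at week 8, 38.4, 36.9 and 35.1% at week 10 and 28.5 and 38.0% at week 12. FVB values were 82.9, 74.2 and 84.7%, then 69.6, 88.5 and 80.8%, then 78.1, 83.1 and 81.2%, then 84.7, 86.6 and 86.5%. The lowest FVB sample (69.6%) lay above the highest PyMT sample (46.3%), and the difference was -44.2 ± 2.33 points (limma, adjusted p = 3.3e-10), from -40.2 at hyperplasia to -52.7 at late carcinoma. In intron 11, 8 positions rose by 20.3 ± 2.31 points (limma, adjusted p = 1.3e-06), from 63.9% in FVB to 84.4% in PyMT, and only the highest FVB sample (77.7%) reached the PyMT range, which began at 76.7%. In intron 3, 4 positions fell by 15.4 ± 2.93 points (limma, adjusted p = 0.00030), with overlapping groups. The remaining called Flt1 clusters differed by -15.3 to 10.0 points. At the core of the promoter, a cluster of 124 positions differed by 0.292 points, and 5 positions upstream, at -1229 to -1146 bp from the TSS, fell by 5.78 ± 0.683 points (limma, adjusted p = 2.1e-06). The neighboring cluster at -1470 to -1388 bp rose by 5.18 ± 1.67 points (limma, adjusted p = 0.0160). The promoter mean was 1.88% in PyMT against 1.69% in FVB (limma, adjusted p = 0.154) and the body was at 69.3% against 69.9% (limma, adjusted p = 0.329).

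Flt4, the lymphatic receptor, was higher at its promoter and lower in exons 8, 13 and 14, while the clusters of exons 5 and 7 were not called. In the coding exon 13, 21 positions at chr11:49633992-49634370 lay at 12.0, 14.1 and 18.3% in PyMT and 25.8, 28.5 and 40.7% in FVB, without overlap, a difference of -15.7 ± 1.45 points (limma, adjusted p = 1.3e-07). The cluster of exon 14 fell by 15.1 ± 3.11 points (limma, adjusted p = 0.00062) and the cluster of intron 21 was also lower (-9.43 ± 1.33 points, limma, adjusted p = 1.4e-05), both with overlapping groups. A further called cluster in exon 8 was lower (-7.71 points). The body as a whole fell by 10.6 ± 0.912 points (limma, adjusted p = 2.0e-08), and all PyMT samples (38.3 to 44.1%) lay below all FVB samples (48.7 to 58.1%).

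The Flt4 promoter, 49 positions, was low in PyMT and FVB. In PyMT it was at 1.80 and 1.80% at week 6, 2.40, 0.976 and 2.39% at week 8, 3.64, 2.57 and 3.10% at week 10 and 3.92 and 2.86% at week 12. In FVB it was at 1.2, 1.40 and 0.788% at week 6, 1.16, 1.10 and 0.949% at week 8, 0.967, 0.470 and 1.02% at week 10 and 0.519, 0.521 and 0.403% at week 12. Only PyMT week 8 replicate 2 lay within the FVB range. The difference was 1.68 ± 0.191 points (limma, adjusted p = 1.5e-06), and 0.674, 0.853, 2.28 and 2.91 points at the 4 stages.

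**Figure D4:**
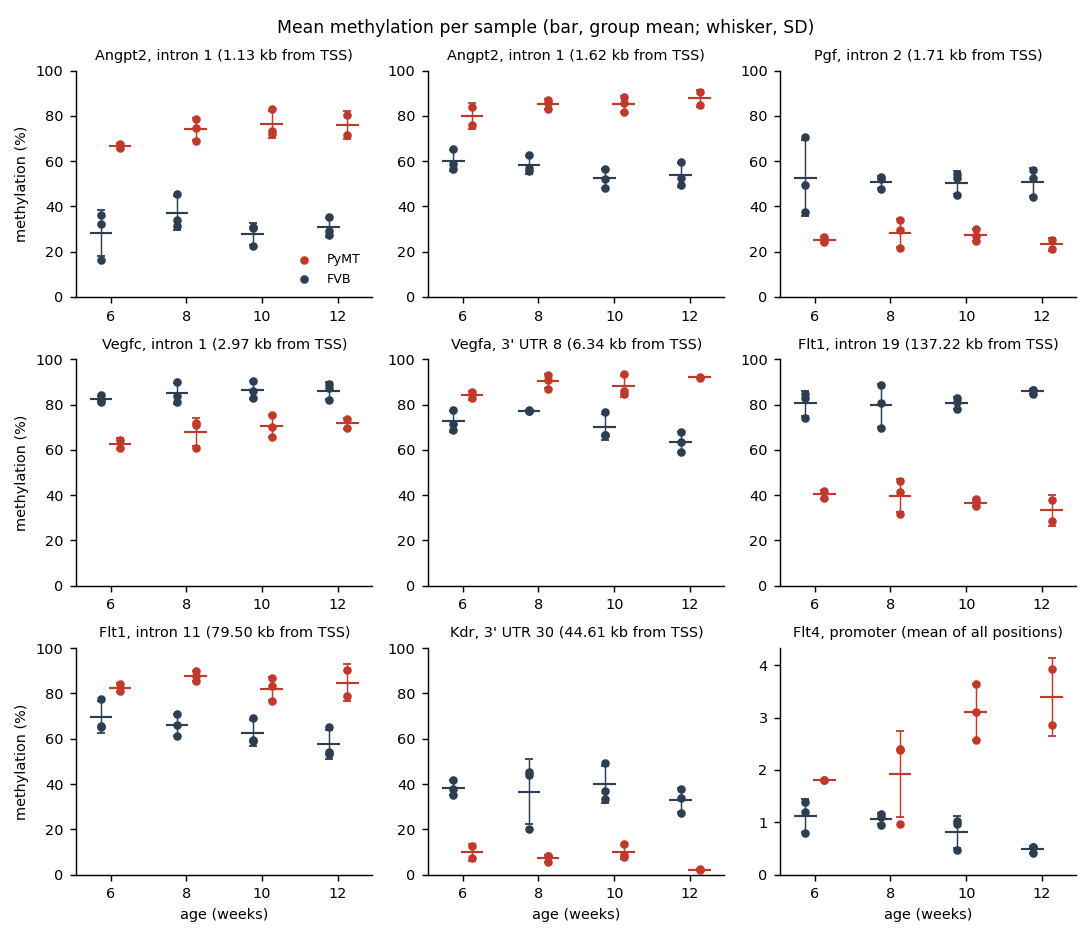
Mean methylation of 8 clusters and of the Flt4 promoter in each sample (points; vertical axis, percent) at each age in weeks (horizontal axis), with the group mean (bar) and SD (whisker), PyMT in red and FVB in dark blue. In the first Angpt2 panel the PyMT samples lie between 65.9 and 83.1% and the FVB samples between 16.5 and 45.5%. The Flt4 panel has its own scale, from 0.403 to 3.92%.

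To ask whether the members changed with the transition to malignancy, weeks 10 and 12 were compared with weeks 6 and 8 within PyMT and within FVB. In PyMT, 1 of the 59 member clusters passed, 1.69%, against 3.25% of all clusters. It was the Flt4 promoter cluster of 44 positions, 14 to 431 bp from the TSS, which rose by 1.47 points (limma, adjusted p = 0.0119). In FVB none of the 59 passed with limma, nor did any of the 84563 clusters, and 7 of the 59 had an unadjusted p under 0.05. None of the 59 passed for the difference between these changes in PyMT and in FVB, 8 had an unadjusted p under 0.05, and 0.848% of all clusters passed. For promoters, 1 of 9 (11.1%) passed in PyMT, against 6.03% of all, and 1 of 9 passed for the difference between PyMT and FVB in this change, against 2.53%. Both were Flt4, which rose by 1.39 points in PyMT (limma, adjusted p = 0.0054) and whose change differed between PyMT and FVB by 1.84 ± 0.382 points (limma, adjusted p = 0.0142). On the logit scale the latter was not called (adjusted p = 0.136).

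By role, 4 of the 20 clusters of the VEGF ligands were higher and 2 lower, 9 of the 32 clusters of the VEGF receptors were higher and 11 lower, and 4 of the 7 clusters of the angiopoietins were higher and 1 lower, beside 16.6% higher and 31.6% lower among all clusters. Called clusters of both directions were found in Pgf, Angpt2, Kdr, Flt1 and Flt4.

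**Figure D5:**
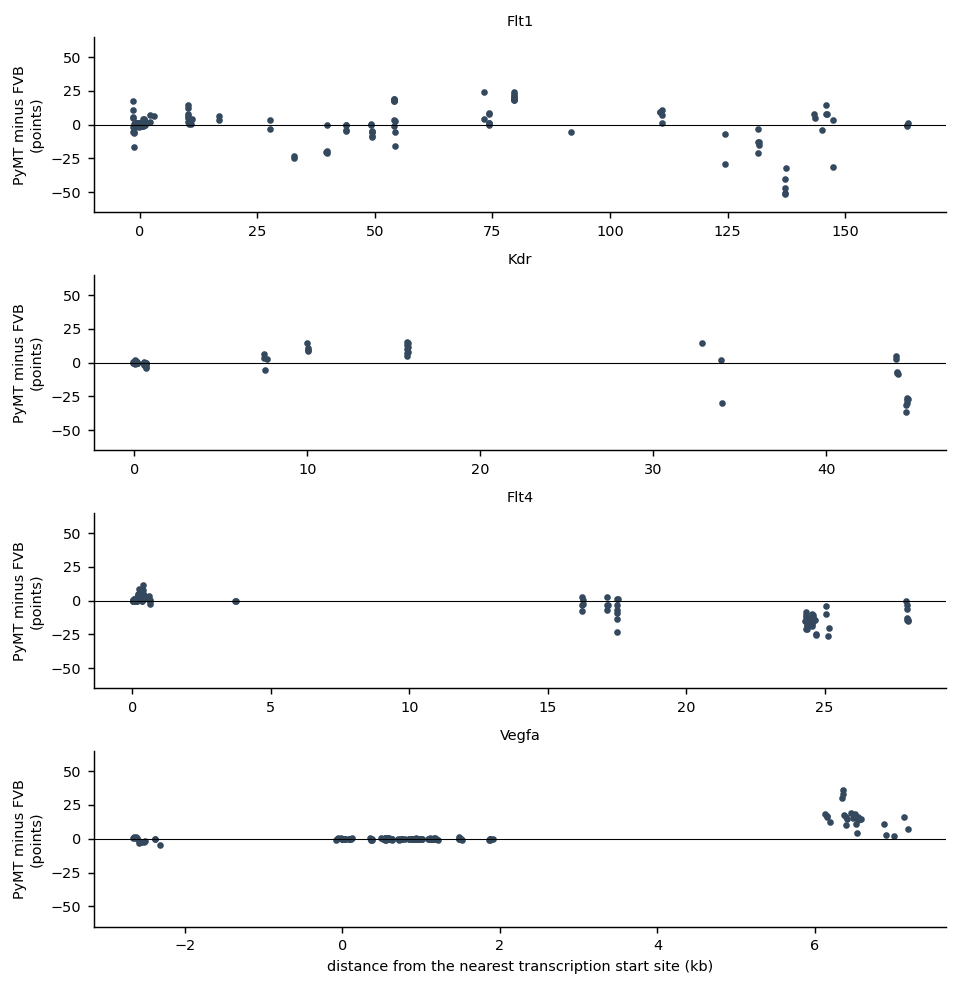
Difference between PyMT and FVB over the 4 stages (vertical axis, percentage points) at each position of Flt1, Kdr, Flt4 and Vegfa against the distance from the nearest TSS (kb). Positions near the start sites lie close to 0, and the larger differences lie farther in, such as those of the Flt1 cluster 137219 to 137335 bp from the TSS, which was 44.2 points lower.

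The other genes of the pathway were read from their promoters, 26 of 29 measured: 8 rose, 2 fell and 16 were not called, where 17.0% of all promoters rose and 17.0% fell, with a median difference of 0.0823 points. Among those called, the 5 with the largest change were Thbs1, an inhibitor of angiogenesis (-9.95 points), Dll4, the Notch ligand of tip cells (4.35), Sema3f (2.34) and Sema3a (2.27), which act on neuropilins, and Klf2, a transcription factor responsive to flow (1.83), all limma and over 16407 promoters. Promoters of endothelial marker genes differed too: of 10 measured, 6 rose and 2 fell, and the mean of the list lay at 26.7 to 30.3% in PyMT and 19.4 to 23.4% in FVB. Luminal epithelial promoters fell in 8 of 10, with list means of 5.03 to 8.11% and 12.0 to 16.9%. All 3 measured basal promoters fell, as did 2 of 5 adipocyte promoters, 2 of which rose, and the 1 measured leukocyte promoter fell. These lists differ between PyMT and FVB alongside the members, and their part in the members' results was not tested. Promoter methylation does not measure the number of cells.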

How the data were processed

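Per the labels, 22 mammary samples were taken, 10 PyMT and 12 FVB. Bismark and mm10 are the aligner and build that the authors name. For CpG cytosines with 10 or more reads, the authors deposited the count of reads and the percent methylated, with no normalization and strands kept apart. Methylated reads were recovered as the rounded product of the 2. The members and all lists were chosen with earlier results of these data known.

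Positions covered in all samples were placed on 45756 curated RefSeq transcripts of 26180 genes. Position tests were logistic likelihood ratios on reads. Clusters, promoters and gene bodies were tested with limma 3.58.1 (R 4.3.3) with a variance trend on sample means, over all features, with 8 groups of genotype and week and Benjamini-Hochberg adjustment. Replicate numbers did not pair the samples (correlations of deviations -0.0757 to 0.0602 for same-numbered samples). The limma p-values weigh a difference against the spread between these samples, and the q-values of the read-based test do not take that spread in. Up to 3 called clusters per gene were described in full, by largest difference. Sequences were read from the mm10 reference. Alternatives to these settings are given in the closing section. The position test was tried on simulated reads without variation between mice, so its q-values were not checked against that variation. The limma test was tried on simulated cluster values. Software was pandas 2.3.3, SciPy 1.17.1, matplotlib 3.10.9 and NumPy 2.4.6 under Python 3.11.15. The study's methods state that 2 outlier samples were left out.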

Additional observations from a re-analysis of the deposited data

Results flagged for a closer look

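The Flt4 promoter differed between PyMT and FVB in its change from premalignant to malignant weeks: the test of that difference in limma gave 1.84 ± 0.382 points (adjusted p = 0.0142), with PyMT 1.39 points higher in malignant weeks and FVB 0.449 points lower. The FVB change did not pass on its own (limma, adjusted p = 0.945). The estimate of the difference between the PyMT and FVB changes lay at 1.57 to 2.10 points when 1 sample was left out. That difference lost its call on the logit scale (limma, adjusted p = 0.136). All values lie under 4%, where 49 positions of 86.5 reads on average carry the mean. Single outlying samples were not tested for within the groups of 2 or 3 samples.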

How the results depend on the processing

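Position counts depended on the test. The counts below are of members only, without the share of all positions beside them. They do not show whether members moved differently from all positions. With a difference of at least 25 points, higher and lower member positions numbered 15 and 19 at hyperplasia, 18 and 27 at adenoma/MIN, 30 and 25 at early carcinoma and 31 and 28 at late carcinoma. Limma across positions takes mice as units and was called at 10 points and an adjusted p under 0.05. With it they numbered 12 and 7, 17 and 20, 26 and 31, and 33 and 26. An overdispersion correction gave 11 and 19 at hyperplasia, 23 and 28 at adenoma/MIN, 40 lower at early carcinoma, and 42 and 44 at late carcinoma. The replicate block, although the numbers do not pair the samples, gave 22 higher at hyperplasia and changed no other position count by over 1.5 times. Leaving out 1 sample gave 23 to 34 higher and 24 to 43 lower at hyperplasia (24 without PyMT week 6 replicate 1), 40 to 55 and 40 to 57 at adenoma/MIN, 46 to 70 and 58 to 67 at early carcinoma, and 50 to 66 and 42 to 62 at late carcinoma (42 without PyMT week 12 replicate 1).

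The 17 higher and 14 lower member clusters became 16 to 18 and 13 to 17 when 1 sample was left out. All 18 described called clusters kept direction and call under each alternative in which they were tested. Clusters passing for the difference between PyMT and FVB in the change to malignant weeks numbered 1 at a coverage minimum of 20 reads, with read-weighted methylation and with gaps of at most 200 bp, and 2 with the replicate block, the Flt4 and Kdr promoter clusters. They numbered 0 to 2 when 1 sample was left out, the samples being PyMT week 8 replicates 1, 2 and 3, FVB week 6 replicate 2, PyMT week 10 replicates 2 and 3 and PyMT week 12 replicate 3. Promoters called fell to 1 higher and 1 lower at 1 kb on each side of a TSS and to 0 and 0 with the upstream 2 kb only. Angpt2 was not measured in either window and Flt4 not in the upstream one, so these windows do not test those calls. With the upstream 2 kb only, the uncalled differences were -0.0649 for the Vegfc promoter, 0.0623 for the Kdr promoter and -0.0788 for the Flt1 promoter, of opposite sign to the main values. The Angpt2 body was 12.9 points and the Pgf body -7.24 points with all gene body positions. The uncalled Vegfb body was -4.13 at 20 reads, -2.32 read-weighted, -0.198 on the logit scale (log2 units), -0.0277 with all body positions, and -1.28 to 1.42 with 1 sample left out. The uncalled Angpt1 promoter, also its described cluster, was -0.0182 to 0.0463. The Kdr body lost its call at 20 reads (-2.17 points) and with the replicate block (-2.44), and the Flt1 promoter gained one at 20 reads (0.393 points, limma, adjusted p = 0.0498). The causes of these changes were not tested. Clusters of 3 or 4 positions rest on few CpGs, and promoters under 1% on few methylated reads.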

Other observations

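For 163 CpGs measured on both strands, the 2 strands' differences between PyMT and FVB lay a median of 0.499 points apart. The largest distance was 13.45 points. With a difference of at least 10 points on the plus strand, 23 of 23 CpGs had the same sign on the minus strand. With 10 bases added on each side, each of the 59 member clusters held at least 1 CCGG, a count not made over all clusters. The Vegfa body difference was 5.60, 6.19, 10.3 and 16.2 points at the 4 stages, and the difference between PyMT and FVB in the change to malignant weeks was 7.35 points (limma, adjusted p = 0.0954), which did not pass. The change itself was 2.58 points in PyMT and -4.76 points in FVB, and neither passed (limma, adjusted p = 0.438 and 0.333).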
